A study of Danio rerio with 7 samples.

Results

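Kruppel-like factors (KLFs) were followed in the labelled lineage of the injured zebrafish heart. They were taken as every gene ID of the expression table whose gene name was klf2, klf3, klf4, klf6, KLF9, klf11, klf13 or klf15 in any case, with or without a final a or b. This gave 11 of 31388 gene IDs, namely klf2a, klf2b, KLF3, KLF4, KLF6, klf6b, KLF9, 2 IDs named KLF11, klf13 and KLF15. The cells came from adult Danio rerio aged 3 to 9 months that carried postnb:CreERT2 and ubb:loxP-GFP-loxP-mCherry, so that cells in which the postnb promoter drove the recombinase turned from GFP to a lasting mCherry label. All fish had a cryoinjury and 4-OHT at 10 µM, which activates the recombinase, at 3 and 4 days post injury (dpi). No uninjured fish and no unlabelled cells were analysed here. One group held 4 pools of mCherry-positive ventricular apex cells at 7 dpi (replicates 1, 2, 3 and 4) and the other 3 pools at 60 dpi (replicates 1, 2 and 4), each from 3 to 5 hearts.

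KLFs are transcription factors with zinc fingers at their C-terminal end that bind GC-rich and CACC-type sequences in promoters. Some mainly activate and others mainly repress, by recruiting cofactors such as SIN3A and CtBP. In mammals KLF2 and KLF4 are known from endothelial cells under blood flow, KLF6 from tissue injury, KLF9, KLF13 and KLF15 from hormone responses, and KLF15 as a brake on growth of heart muscle and on cardiac fibrosis. Several are also induced within minutes to hours by stress. The cells of every library here were enzymatically separated and sorted, and what this did to KLF levels was not tested.

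Values are TPM, a transcript abundance corrected for length that adds up to one fixed total per library, and the read depth behind them is unknown. Between 9844 and 15431 IDs reached 1 TPM in the 7 dpi libraries and between 10840 and 14061 in the 60 dpi libraries, the fewest of each group in its replicate 4. Fibroblast marker IDs summed to between 7426 and 10409 TPM at 7 dpi and between 8549 and 10477 TPM at 60 dpi, with none of 17 IDs at 0 in either group. Macrophage and general leukocyte markers summed to 8341 to 11273 TPM and then 2402 to 5105 TPM, so the sorted pools also held leukocyte transcripts. Of 19 tested IDs of these markers, 14 were called lower at 60 dpi by limma and 0 had a log2 fold change above 0. In pooled RNA, fewer cells of a type and less RNA per cell cannot be told apart. The labels do not say whether pools of one group were sorted on separate days, so the p-values measure the spread between these pools, which may be partly technical.

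KLF9 and klf2a were the KLF transcripts called higher at 60 dpi than at 7 dpi, and none was called lower. The mean of KLF9 was 11.3 ± 10.9 TPM at 7 dpi (SD, n = 4) and 169 ± 74.9 TPM at 60 dpi (SD, n = 3), and that of klf2a was 21.2 ± 7.20 and 83.1 ± 6.45 TPM. KLF4 was higher in every 60 dpi pool than in any 7 dpi pool but missed the threshold. KLF6, the most abundant KLF transcript in all 4 pools at 7 dpi, had nearly equal means at both times. Of the 11 IDs 10 reached 1 TPM in at least 3 libraries and were tested with limma on log2(TPM + 1). Of these 2 passed a Benjamini-Hochberg adjusted p of 0.05, both higher at 60 dpi. In the counts of genes below, rose and fell mean called at this threshold. Of all 15130 tested genes 6.88% were called, 3.2% higher and 3.68% lower. At an unadjusted p under 0.05 there were 4, and 0 of them were lower. The share of all tested genes at that threshold was not counted. This number and those of the gene lists below therefore have no background beside them. The groups were apart, every 60 dpi library above every 7 dpi library, for 3 of the 10, against 10.3% of all tested genes. The median log2 fold change over the 10 tested IDs was 0.90, beside -0.04 over all tested genes. With 4 against 3 libraries, data were simulated with normal noise of each gene's measured spread. The changed genes were drawn from all tested genes, so the shares that follow are not those of the KLF IDs. Calls were made for 6.5% of changes of 2 and 43.1% of changes of 4 on the log2 scale, so most were missed there. The simulation held 200 changed genes, fewer than the 1041 called in the data. The adjustment is stricter with fewer changed genes, so these shares may be too low for the data.

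**Figure D1:**
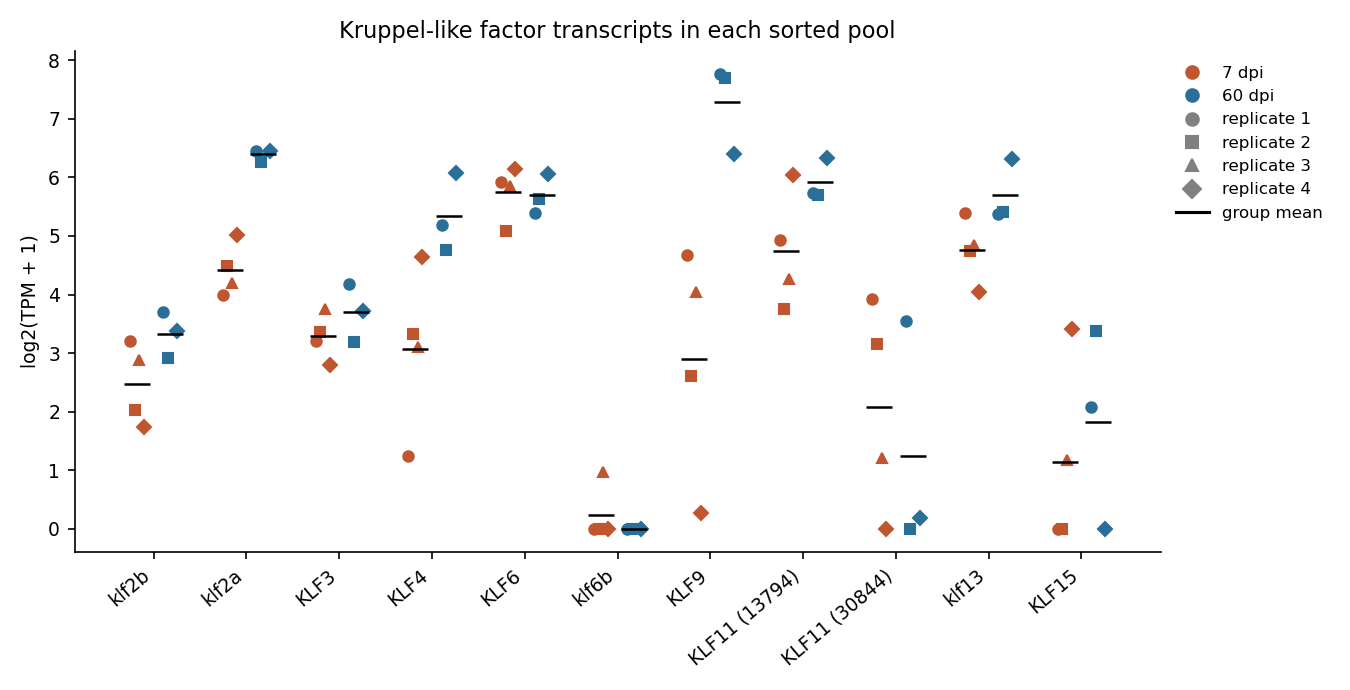
Level of each of the 11 KLF gene IDs in every library, as log2(TPM + 1), with 7 dpi in orange, 60 dpi in blue, 1 marker shape per replicate number and a bar at each group mean. For the 2 KLF11 IDs the end of the ID is given in brackets. KLF9, klf2a and KLF4 have no 60 dpi point as low as the highest 7 dpi point.

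KLF9 (ENSDARG00000068194) encodes a repressor of the KLF family that is induced by glucocorticoids and thyroid hormone in vertebrates. Its 7 dpi pools held 24.6, 5.07, 15.4 and 0.20 TPM in replicates 1 to 4. Its 60 dpi pools held 218, 207 and 83.1 TPM in replicates 1, 2 and 4. The groups did not overlap, and replicate 4 was the lowest library of each group. The log2 fold change was 4.39 ± 0.88 (SE, limma adjusted p = 0.0124), with a 95% interval of 2.47 to 6.32, and the ratio of the mean TPM was 14.9. At 60 dpi KLF9 lay above 96.9, 96.2 and 88.0% of the IDs detected in the same library. At 7 dpi it lay above 71.2, 40.5 and 70.0% in replicates 1 to 3 and was under 1 TPM in replicate 4. Without 7 dpi replicate 4 the log2 fold change was 3.52 (limma adjusted p = 0.0146), and without replicate 4 of both groups 3.96 (adjusted p = 0.0101). The call lay near the threshold under other choices. It was lost at a pseudocount of 0.1 (limma adjusted p = 0.0508), with no filter on low TPM (0.0513), without limma's mean-variance trend (0.0565) and without 60 dpi replicate 2 when the same 15130 genes were tested (0.0508), and stood at 0.0496 when the tested genes were chosen anew.

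Some transcripts tied to corticosteroid signalling were also higher at 60 dpi. They belong to a list of corticosteroid and thyroid hormone receptors, common glucocorticoid targets and related genes such as HSD11B2. Like the other gene lists, it was chosen with earlier results of these data known. Of its 11 tested IDs 3 rose and none fell, with 4 at an unadjusted p under 0.05, all higher, and a median log2 fold change of 1.1. FKBP5, a chaperone of the glucocorticoid receptor and a widely used readout of its activity, had 33.3, 22.0, 31.3 and 24.8 TPM at 7 dpi, against 477, 286 and 346 TPM at 60 dpi. Every 60 dpi pool was far above every 7 dpi pool (log2 fold change 3.67 ± 0.34, SE, limma adjusted p = 0.000161). HSD11B2, which encodes a cortisol-inactivating enzyme, was between 0.11 and 10.95 TPM at 7 dpi and between 104 and 195 TPM at 60 dpi, and it rose too. sgk1, a kinase gene induced by corticosteroids, rose from 103 ± 19.6 to 295 ± 10.3 TPM (adjusted p = 0.00848). NR3C1, the glucocorticoid receptor gene, had 11.4, 10.0, 10.5 and 0.17 TPM at 7 dpi, against 16.9, 22.4 and 33.1 TPM at 60 dpi. Its groups were apart, but it did not pass (adjusted p = 0.222). tsc22d3, another glucocorticoid target gene, had 45.3 ± 17.7 and 59.1 ± 40.5 TPM in overlapping groups, and it did not pass. The part of hormone signalling in the level of KLF9 was not tested.

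klf13 (ENSDARG00000061368), a close relative of KLF9 that also recruits SIN3A, did not pass. It had 41.2, 25.9, 27.7 and 15.5 TPM at 7 dpi, against 40.4, 41.4 and 78.3 TPM at 60 dpi. Its groups overlapped through 7 dpi replicate 1, and 60 dpi replicate 4 was the highest library. The estimate, 0.94 ± 0.46 on the log2 scale (SE, limma adjusted p = 0.258), had a 95% interval of -0.06 to 1.94. KLF15 (ENSDARG00000091127), a glucocorticoid-induced KLF of muscle, liver and heart in mammals, was scarce and uneven. It was listed at 0, 0, 1.26 and 9.62 TPM at 7 dpi, against 3.25, 9.39 and 0 TPM at 60 dpi. The groups overlapped over nearly their whole range (log2 fold change 0.68 ± 1.06, SE, limma adjusted p = 0.778). This rested on replicate 4, the highest library at 7 dpi and the lowest at 60 dpi. Without replicate 4 of both groups the log2 fold change was 2.34 (adjusted p = 0.0921) and the groups were apart, as they then were for 5 of the 10 tested KLF IDs and for 19.9% of all genes tested there, counted as higher at 60 dpi. MYL7, a cardiomyocyte myosin gene, was at 135, 277, 139 and 99.7 TPM in the same 7 dpi libraries. It was at 195, 1389 and 1319 TPM in the same 60 dpi libraries. The part of cardiomyocyte RNA in the KLF15 values was not tested.

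klf2a (ENSDARG00000042667) encodes a KLF2 protein, which keeps vessel-lining cells quiescent under flow and acts in heart valve formation in zebrafish. Its 7 dpi pools held 15.0, 21.4, 17.4 and 31.3 TPM. Its 60 dpi pools held 86.7, 75.7 and 87.0 TPM. The groups were far apart and the 60 dpi pools were close to each other. The log2 fold change was 1.97 ± 0.40 (SE, limma adjusted p = 0.0134), with a 95% interval of 1.09 to 2.85, and the ratio of means was 3.91. The call held without any single library, at adjusted p between 0.0122 and 0.0487 whether or not the tested genes were chosen anew. Among the fits without a replicate block it was lost without limma's mean-variance trend (0.0651). Its paralog klf2b (ENSDARG00000040432) was much scarcer, at 8.22, 3.09, 6.40 and 2.32 TPM at 7 dpi, against 12.0, 6.57 and 9.33 TPM at 60 dpi. Its groups overlapped (log2 fold change 0.87 ± 0.74, SE, adjusted p = 0.548). klf2a exceeded klf2b in all 7 libraries. The log2 ratio of klf2a to klf2b had a mean of 1.96 ± 1.12 at 7 dpi (SD, n = 4) and 3.06 ± 0.29 at 60 dpi (SD, n = 3), a difference that a two-sided exact permutation test over 35 splits did not separate from the spread (p = 0.171, 0.343 after adjustment over 2 pairs). The smallest p this test allows is 0.0571, so it could not pass 0.05 on any data. The same permutation test gave p = 0.0571 at a pseudocount of 5 and p = 0.343 at a pseudocount of 0.1.

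KLF4 (ENSDARG00000079922), a regulator of endothelial, smooth muscle and stem cell states in mammals, was higher in the 60 dpi pools but did not pass. It had 1.36, 9.08, 7.56 and 23.9 TPM at 7 dpi, against 35.6, 26.0 and 66.3 TPM at 60 dpi. The groups did not overlap, though 7 dpi replicate 4 lay just under the lowest 60 dpi pool, and replicate 4 was the highest library of each group. The log2 fold change was 2.26 ± 0.75 (SE, limma adjusted p = 0.0972), with a 95% interval of 0.63 to 3.90. Without 7 dpi replicate 4 it was 2.78 (adjusted p = 0.0408), and without replicate 4 of both groups 2.42 (adjusted p = 0.0808).

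Markers of endothelium, a cell type in which KLF2 and KLF4 act in mammals, gave 1 called gene. The 19 marker IDs summed to 301, 163, 237 and 115 TPM at 7 dpi, against 394, 518 and 459 TPM at 60 dpi. The sums did not overlap, but cd34 alone set them apart: without it they were 243, 75.4, 148 and 55.8 TPM in the early pools, against 180, 235 and 187 TPM in the late pools, and they overlapped. Of 16 tested IDs 1, cd34, rose and none fell (4 at an unadjusted p under 0.05, 3 of them higher; median log2 fold change 0.52). cd34, a surface protein gene of both vessels and fibroblast-like cells, rose from 73.4 ± 17.4 to 257 ± 37.0 TPM. cdh5, the cadherin gene that defines endothelium, had 18.8, 8.80, 23.9 and 0.85 TPM and then 22.3, 40.9 and 59.5 TPM, in overlapping groups (limma adjusted p = 0.18). No marker was at 0 in the whole 7 dpi group, whereas pecam1a and esamb were at 0 in all 60 dpi libraries. Per 1000 TPM of endothelial markers, klf2a had 49.8, 131, 73.1 and 272 TPM at 7 dpi, against 220, 146 and 189 TPM at 60 dpi. These groups overlapped only through 7 dpi replicate 4, the library with the lowest marker sum. With cd34 left out of the markers klf2a had 61.6, 283, 118 and 561 TPM, against 482, 322 and 465 TPM. The overlap again came from 7 dpi replicate 4 alone. Per 1000 TPM of fibroblast markers klf2a had 1.67 to 3.93 and 8.28 to 9.77 TPM, and the groups were apart. The part of endothelial RNA in the klf2a result was not tested.

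Transcripts of chosen inputs to KLF2 and KLF4 showed no called change, and the activity of these routes was not measured. These inputs were genes of the MEK5-ERK5-MEF2 pathway, which induces both genes under flow, of the CCM complex, which restrains them, and some related genes. Of 18 tested IDs limma called 0, with 2 at an unadjusted p under 0.05 and a median log2 fold change of -0.29. Immediate early and dissociation-response genes moved much more. Of 31 tested IDs 16 rose and 0 fell (limma; 25 at an unadjusted p under 0.05, 24 of them higher), with a median log2 fold change of 1.39, and the summed level went from 5768 to 11406 TPM at 7 dpi to 35037 to 41375 TPM at 60 dpi. FOS, the AP-1 subunit gene, rose from 510.0 ± 88.1 to 6898 ± 1030 TPM (limma adjusted p = 2.3e-05), and FOSL1 from 67.2 ± 5.37 to 674 ± 61.6 TPM. Per 1000 TPM of this list klf2a had 1.31 to 4.08 TPM at 7 dpi and 1.83 to 2.48 TPM at 60 dpi, in overlapping groups, while KLF9 had 0.0261 to 2.18 and 2.37 to 6.05 TPM, which were apart. The part of the stress response in the KLF results was not tested.

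KLF6 (ENSDARG00000029072), an activator induced early after injury of liver and vessels in mammals, had 59.6, 33.1, 56.6 and 69.8 TPM at 7 dpi, against 41.0, 48.3 and 65.7 TPM at 60 dpi. The 60 dpi pools lay wholly within the range of the 7 dpi pools. The log2 fold change was -0.06 ± 0.39 (SE, limma adjusted p = 0.957), and its 95% interval of -0.91 to 0.79 leaves room for a change of nearly 2-fold either way. Its sign turned without 7 dpi replicate 4 (0.07) or 60 dpi replicate 1 (0.09). klf6b (ENSDARG00000038561) was listed at 0.95 TPM in 7 dpi replicate 3 and at 0 in the other 6 libraries, so it was not tested.

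KLF11 encodes a repressor induced by TGF beta that recruits SIN3A. The ID ENSDARG00000013794 had 29.6, 12.4, 18.3 and 64.7 TPM at 7 dpi, against 52.2, 51.1 and 79.2 TPM at 60 dpi. Only 7 dpi replicate 4 reached into the range of the 60 dpi pools. The log2 fold change was 1.17 ± 0.54 (SE, limma adjusted p = 0.225), and without 7 dpi replicate 4 it was 1.60 (adjusted p = 0.0544). The second ID, ENSDARG00000030844, had 14.1, 7.92, 1.32 and 0 TPM and then 10.7, 0 and 0.14 TPM. It was thus high in replicate 1 of both groups and low or at 0 in replicate 4 of both (adjusted p = 0.75). The log2 ratio of the first to the second ID was 2.67 ± 2.49 at 7 dpi (SD, n = 4) and 4.67 ± 2.17 at 60 dpi (SD, n = 3). The exact permutation test gave a two-sided p of 0.343, and it allows none under 0.0571. Because RSEM divides reads between similar transcripts, the split between these paralogs is uncertain. KLF3 (ENSDARG00000015495), a repressor that works through CtBP, had 8.25, 9.31, 12.5 and 5.98 TPM at 7 dpi, against 17.1, 8.08 and 12.2 TPM at 60 dpi, in overlapping groups (log2 fold change 0.41 ± 0.61, SE, adjusted p = 0.766).

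**Figure D2:**
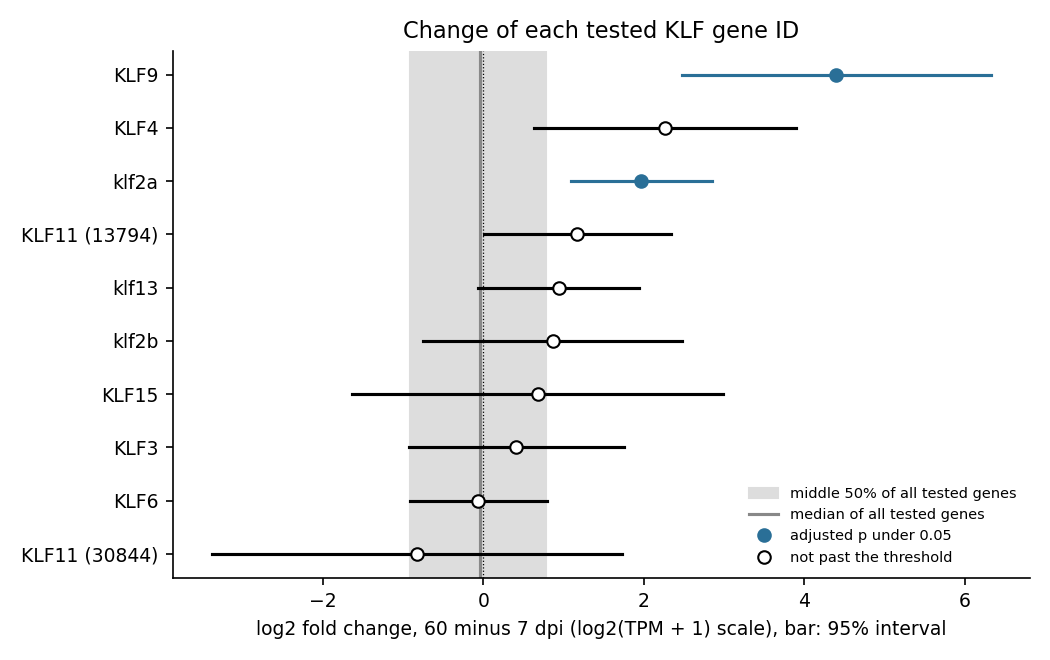
Log2 fold change (60 minus 7 dpi, log2(TPM + 1) scale) of the 10 tested KLF gene IDs with 95% intervals from limma. Filled points are KLF9 and klf2a, which passed the adjusted threshold, and the grey band and line give the middle 50% and the median of all tested genes. The intervals of KLF9, KLF4, klf2a and, narrowly, the first KLF11 ID (ENSDARG00000013794) lie above 0.

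The summed level and the make-up of the KLF IDs were unlike at the 2 stages. The 11 IDs summed to 202, 127, 165 and 223 TPM at 7 dpi and to 517, 474 and 481 TPM at 60 dpi, and the groups did not overlap. Without KLF9 the sums were 122 to 223 TPM and 266 to 398 TPM, still apart. Without KLF9 and klf2a they were 101 to 192 TPM and 191 to 311 TPM, and they just overlapped. KLF6 made up 30.2% ± 3.43 of the sum at 7 dpi (SD, n = 4) and 10.6% ± 2.85 at 60 dpi (SD, n = 3). This share was smaller beside a larger sum, while the mean of KLF6 itself was 54.8 and 51.7 TPM. KLF9 made up 6.40% ± 5.41 and 34.4% ± 14.8, with 42.2, 43.7 and 17.3% in the 3 late pools. klf2a made up 12.2% ± 4.09 and 17.0% ± 1.06. These shares are descriptions of the 11 chosen IDs and were not tested.

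**Figure D3:**
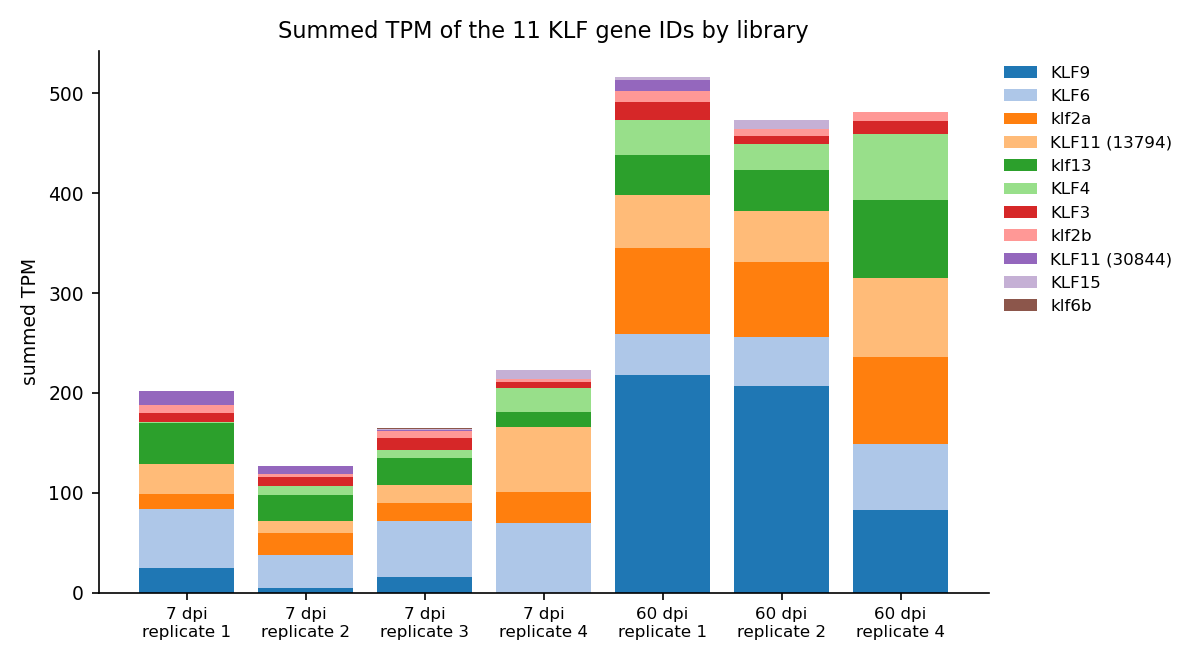
Summed TPM of the 11 KLF gene IDs in each library, stacked by ID. KLF6 is the largest block in all 4 libraries at 7 dpi, KLF9 in 60 dpi replicates 1 and 2, and klf2a, at 87.0 TPM, in 60 dpi replicate 4.

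In order of mean TPM, 7 dpi pools had KLF6 first (54.8 ± 15.5), followed by KLF11 (ENSDARG00000013794, 31.2 ± 23.4), klf13 (27.6 ± 10.6) and klf2a (21.2 ± 7.20). KLF6 was above the first KLF11 ID in all 4 pools, yet the ranges overlapped. Every neighbouring pair with a range overlapped at 7 dpi, so the finer order is not fixed by these pools. At 60 dpi the order was KLF9, klf2a, KLF11 (60.8 ± 15.9), klf13 (53.4 ± 21.6), KLF6 (51.7 ± 12.7) and KLF4 (42.6 ± 21.1). Here too neighbours overlapped in range, except that KLF4 and all IDs above it were separate from KLF3 and the scarcer IDs below it.

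No further KLF or SP ID was called, but only 16 of the 24 names sought matched an ID. Of 21 further KLF and SP gene IDs 14 were tested, and limma called 0, with 2 at an unadjusted p under 0.05 and a median log2 fold change of 0.40. Those were one KLF12 ID (ENSDARG00000015312), with 7.59, 9.77, 14.1 and 21.3 TPM at 7 dpi, against 31.3, 37.4 and 27.8 TPM at 60 dpi (adjusted p = 0.159), and one KLF5 ID (ENSDARG00000015506), with 7.64, 4.05, 3.77 and 5.49 TPM and then 1.88, 0.04 and 0.05 TPM (adjusted p = 0.15). Both had groups that did not overlap, in opposite directions, and they were named after their values were seen. The groups of SP5 were also apart, at 21.5 to 41.1 TPM and then 41.5 to 72.2 TPM (limma adjusted p = 0.314). Of all tested genes 10.3% had groups apart and higher at 60 dpi, and 11% apart and lower. klf1, the erythroid KLF, had 3.83, 0.11, 0.50 and 11.1 TPM at 7 dpi, against 1.13, 1.43 and 3.91 TPM at 60 dpi, in overlapping groups.

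The called cofactors and reported targets of KLFs are set beside 6.88% called among all 15130 tested genes. Of 16 tested cofactor IDs 1 rose and none fell (2 at an unadjusted p under 0.05, 1 of them higher; median log2 fold change 0.13). It was TGIF1, a homeobox corepressor gene, at 85.9 ± 20.3 and 220.0 ± 39.0 TPM (limma adjusted p = 0.0228). Of 20 tested reported targets 1 rose and 1 fell (6 at an unadjusted p under 0.05, 4 of them higher, with a median of 0.61). CCN2, a matrix signalling gene that KLF15 represses in mammalian heart cells, rose from 120.0 ± 46.1 to 392 ± 36.8 TPM (adjusted p = 0.00938). tgfb1b, a TGF beta ligand gene related to a target of KLF6 in mammals, fell from 24.5, 16.1, 14.1 and 24.0 TPM to 1.82, 0 and 0 TPM (adjusted p = 0.0122). The other cell types moved as follows. In neutrophil, lymphocyte and red cell and thrombocyte markers 3 of 8, 4 of 10 and 3 of 13 tested IDs fell and none rose (7, 9 and 7 at an unadjusted p under 0.05, 0 of them higher). In cardiomyocyte markers 1 of 15, MYL7, was called higher (limma adjusted p = 0.0467), though its groups overlapped through 60 dpi replicate 1. The list sums were 446 to 868 TPM at 7 dpi and 451 to 4803 TPM at 60 dpi, and they overlapped too. In fibroblast markers 3 of 17 rose and 2 fell.

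The genes with the most similar profiles were found by the root mean square difference between centred log2(TPM + 1) values over the 7 libraries, as a description that rests on the groups and on library-wide effects alike. For KLF9 the nearest were MYC (ENSDARG00000007241) at 0.65, zgc:114046 at 0.67, PKHD1L1 at 0.68 and GLUL (ENSDARG00000099776) at 0.70, beside a median of 2.61 over all candidates. Like KLF9, which they were chosen to resemble, these 4 had their lowest value in 7 dpi replicate 4, at 6.22, 0, 0 and 0.45 TPM. For klf2a the nearest were phactr4a at 0.21 and synm and znf516 at 0.22, beside a median of 1.41. Of these, phactr4a rose from 23.4 ± 5.21 to 99.8 ± 23.4 TPM (limma adjusted p = 0.00925), while znf516 did not pass (adjusted p = 0.154). KLF9 and klf2a differed from each other by 2.03, and the KLF nearest to klf2a was the KLF11 ID ENSDARG00000013794 at 0.69, followed by KLF4 at 0.74.

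**Figure D4:**
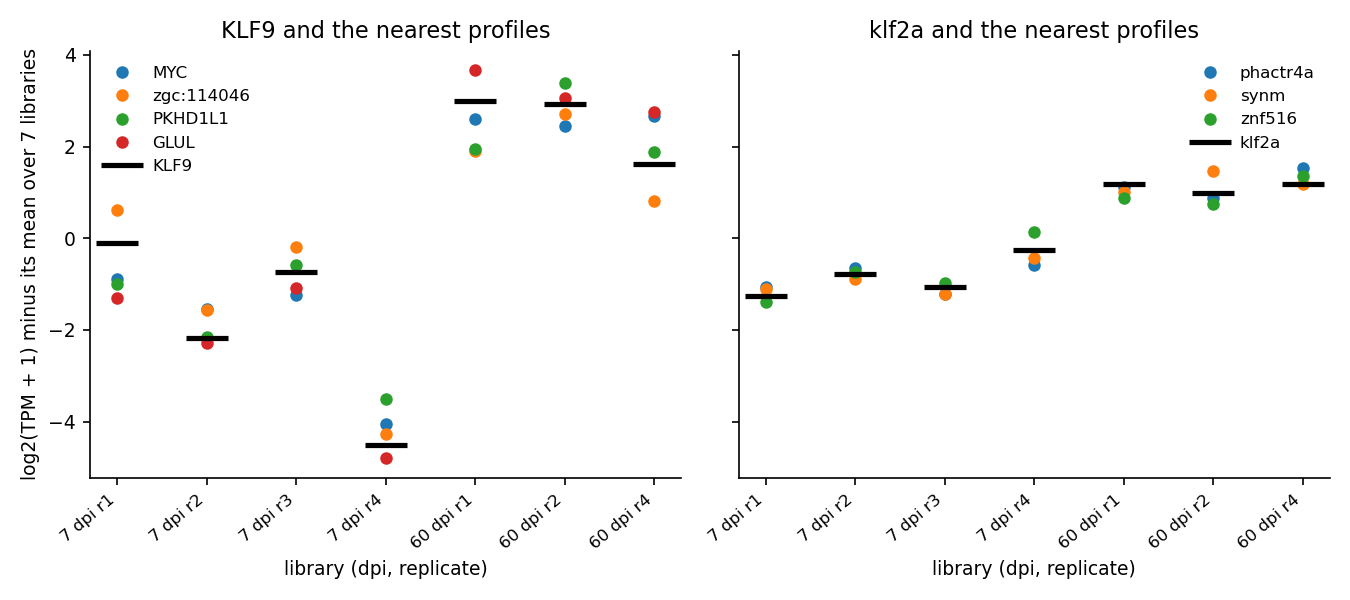
Log2(TPM + 1) of KLF9 (left) and klf2a (right) in each library, centred on its mean over the 7 libraries and drawn as black bars, with the most similar genes as coloured points (4 for KLF9 and 3 for klf2a); r marks the replicate number. KLF9 and its 4 neighbours drop lowest in 7 dpi replicate 4, whereas klf2a and its 3 neighbours are highest there among the 7 dpi libraries.

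**Figure D5:**
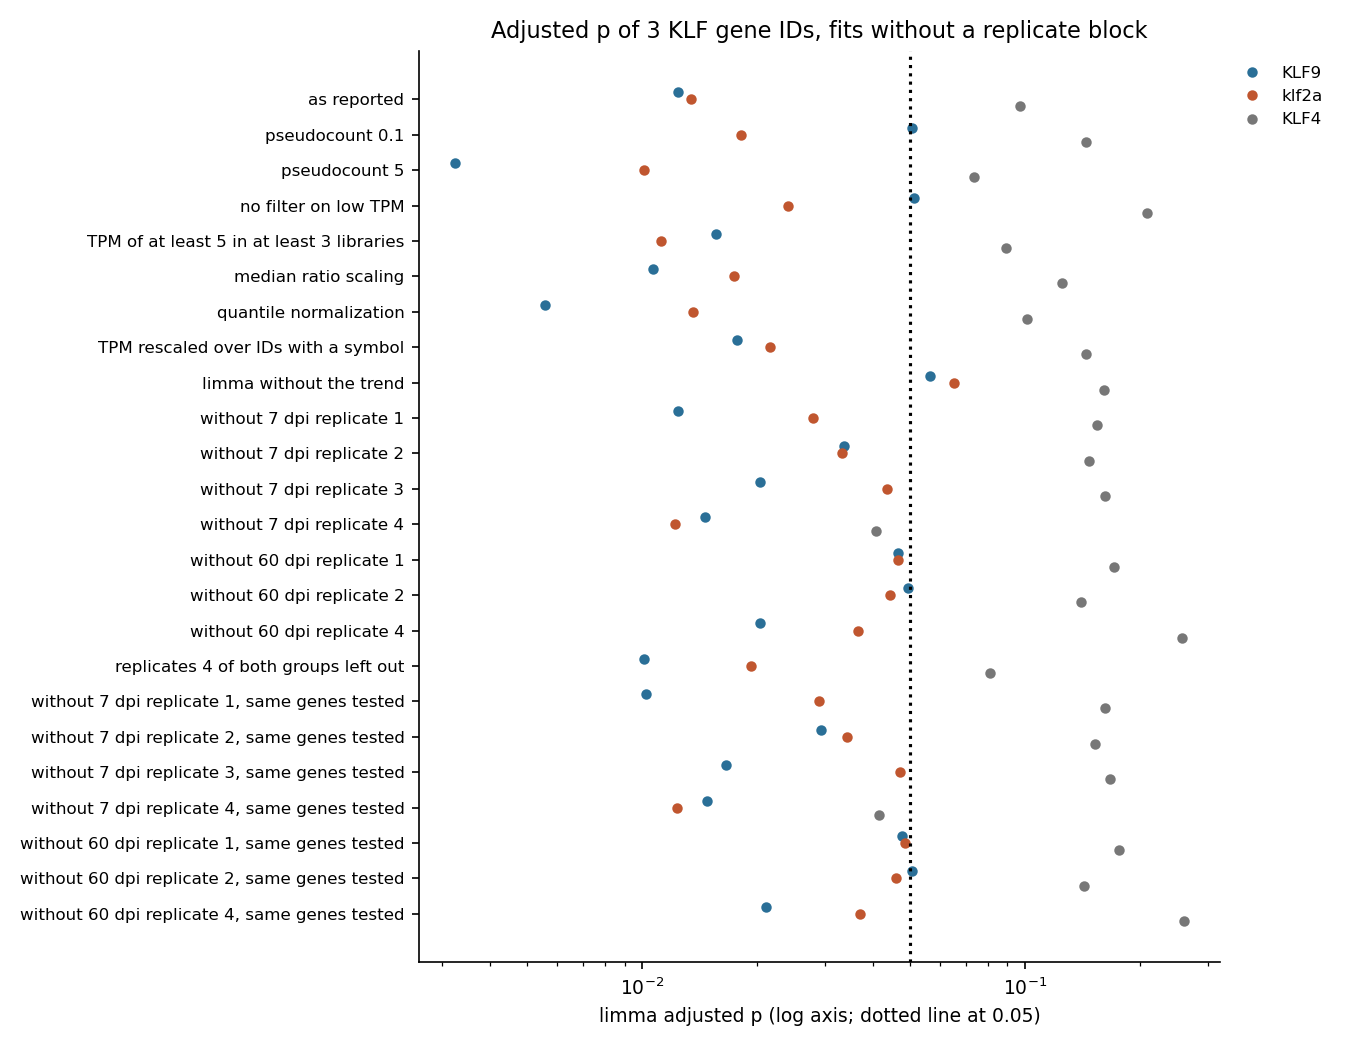
Limma adjusted p of KLF9, klf2a and KLF4 as reported and under alternatives fitted without a replicate block, on a log axis with a dotted line at 0.05. The fit of replicates 1, 2 and 4 alone, also without a block, is not drawn. Among the fits drawn klf2a exceeds 0.05 only without the trend, KLF9 lies just above it under 4 settings, and KLF4 drops below it only without 7 dpi replicate 4, with the tested genes chosen anew or kept.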

How the data were processed

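RNA from sorted mCherry-positive cells was measured in 7 libraries, grouped by time point from the sample titles. The authors deposited TPM values for 31388 gene IDs, and per the submitters' processing notes CASAVA 1.8.2, cutadapt and RSEM 1.2.25 were used with genome build Zv9; an aligner or annotation is not given in the sources used here. Per the labels' protocols, libraries were amplified from 0.2 to 0.6 ng of RNA, and scarce transcripts can drop out by chance at such inputs, so a listed 0 is not absence. A supplied name table gave symbols to 25925 IDs (82.6%). IDs with at least 1 TPM in at least 3 libraries (15130) were fitted with limma 3.58.1 (R 4.3.3) on log2(TPM + 1), with a term for time and a mean-variance trend, and two-sided p-values were Benjamini-Hochberg adjusted over all tested genes. Fold changes on this scale understate changes of scarce transcripts. The fit was tested on simulated data (20 runs, 200 changed genes).

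The members and gene lists were chosen with earlier results of these data known. Named were all 11 KLF IDs, up to 4 called genes of each list, a few fixed genes and the 4 nearest profiles of each called KLF, among IDs with a symbol whose higher group averaged 10 TPM or more. List entries were matched by symbol, with or without a final a or b. Alternatives covered the pseudocount, filter, scaling, trend, left-out libraries and a replicate block. Tables and figures were made with pandas 2.3.3 and matplotlib 3.10.9 in Python 3.11.15. One of the nearest profiles of klf2a is not reported here. No sequences are shown.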

Additional observations from a re-analysis of the deposited data

Results flagged for a closer look

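Among 46 genes named or held as members, 5 had 1 library of the 4 at 7 dpi that stood far from the others, by Dixon's gap-to-range ratio at its 95% critical value, where chance gives about 1 in 20. KLF15 had 9.62 TPM in 7 dpi replicate 4, against 1.26 TPM or less in the others. klf6b had 0.95 TPM in replicate 3 and was at 0 elsewhere, which gives a ratio of 1 at any level, so its flag carries no weight. NR3C1 had 0.17 TPM in replicate 4, against 10.0 TPM or more in the others. BTG2, an immediate early gene, had 73.0 TPM and NCF1, a phagocyte oxidase gene, 136 TPM in replicate 4, the highest and the lowest of their groups. Replicate 4 detected the fewest gene IDs of the 7 dpi libraries (9844).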

How the results depend on the processing

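Over all 25 alternatives klf2a and KLF9 stayed higher at 60 dpi, with log2 fold changes of 1.72 to 2.17 and 3.52 to 4.99. Without limma's trend both calls were lost (limma adjusted p = 0.0651 and 0.0565, at 1.97 and 4.39), leaving 0 called KLF IDs. KLF9 was also lost at a pseudocount of 0.1 (4.98), with no filter (4.39) and, in a further check chosen later from the data, without 60 dpi replicate 2 with the tested genes kept (4.19), each leaving 1 called ID; the cause was not tested. Leaving out single libraries gave 1 to 3 called IDs and KLF4 values of 1.65 to 2.78, called (2.78) only without 7 dpi replicate 4. KLF6 ranged from -0.28 to 0.09, turning to 0.07 and 0.09 without 7 dpi replicate 4 and 60 dpi replicate 1, and KLF15 from -0.10 (without 60 dpi replicate 2) to 1.59 without single libraries and 2.34 without both replicates 4. The other tested KLF IDs kept their direction and stayed uncalled. TPM rescaled over IDs with a symbol moved the median of all tested genes from -0.04 to -0.26; relative to it the KLF median was 0.94 under both scalings. Over all genes, 484 were called higher and 557 lower, but 266 and 330 with no filter, 186 and 291 without the trend, and 209 to 472 higher and 298 to 709 lower when single libraries were left out (with the tested genes kept, the calls that moved by over 1.5 times were 281, 279, 213 and 287 higher, for 7 dpi replicate 2, 7 dpi replicate 3, 60 dpi replicate 2 and 60 dpi replicate 4, and 302, 362, 292 and 367 lower, for each of 7 dpi replicate 1 to 3 and for 60 dpi replicate 2). Deviations of same-numbered libraries correlated at 0.0054, 0.0145 and 0.028, and those of differently numbered libraries at -0.0237 to 0.019. These values showed no clear pairing by replicate number, but they cannot exclude a shared batch. With the replicate block on replicates 1, 2 and 4, 159 genes were higher and 188 lower, against 283 and 298 in the same 6 libraries without it; klf2a (1.89) had an adjusted p of 0.0803, KLF9 remained called, and 1 KLF ID was called. TPM hold no depth, so the precision of scarce KLF transcripts is not known.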
